A study of Macaca mulatta with 20 samples.

Results

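The glycolytic isozymes described here are 9 genes, ENO1, ENO2, ENO3, ALDOA, ALDOC, LDHA, LDHB, LDHC and PGK2, of the 14132 genes named on rhesus arrays and 19775 on human arrays. They were taken by name, with every probe set (the group of short probes that reads a transcript) whose only gene symbol in the array annotation was that of a member. This gave 27 probe sets of 107379 that were not controls, 11 of 52766 on rhesus arrays and 16 of 54613 on human arrays. The genes had been chosen by their levels in these samples, among them the disagreement of ENO2 between the array types, so their levels are given as a description without a test. All 9 genes were read on human arrays and 6 on rhesus arrays, where ENO3, LDHB and LDHC had no probe set of their own.
Glycolysis is the pathway that splits glucose into pyruvate in the cytosol, and several of its enzymes exist as isozymes, which are products of different genes that catalyse the same step. Enolase converts phosphoglycerate to phosphoenolpyruvate and is encoded by ENO1, found in most cells, ENO2, known as neuron-specific enolase, and ENO3, the muscle form. Aldolase, which cleaves fructose bisphosphate, includes ALDOA, abundant in muscle and many other tissues, and ALDOC, the brain form, which is enriched in astrocytes and some neurons. Lactate dehydrogenase interconverts pyruvate and lactate, with LDHA prominent in glycolytic tissue, LDHB in heart and brain, and LDHC in male germ cells. Phosphoglycerate kinase has the X-linked form PGK1 and the intronless PGK2 of later spermatogenic cells.
RNA of the rhesus macaque was measured from cerebral cortex, pancreas, testis and thymus and from immortalized fibroblasts, a cell line of connective tissue cells kept dividing in culture. Each source was read on 2 Rhesus Macaque Genome Arrays, with probes designed from rhesus sequence, and 2 Human Genome U133 Plus 2.0 arrays, with probes designed from human sequence, 20 arrays in all. The sources were untreated as far as the labels say, and the age, sex and number of animals are unknown here. The arrays of each source carry the label of technical replicates, and by the study's methods they were aliquots of the same RNA, so every error and p-value below measures the spread between arrays and carries no spread between animals.
The values are log2 expression values, and a difference of 1 is a 2-fold difference. Bacterial control transcripts that were not added had means up to 3.12 on both array types, and this level was taken as the floor below which a gene is not told apart from background. Of the member probe sets, 9 of 11 on rhesus arrays and 9 of 16 on human arrays lay above the floor on all 10 arrays of the type, and 0 and 3 lay under it on all. A probe set binds its transcript with its own efficiency, so the level of 1 isozyme cannot be set against that of another to say which is more abundant. What can be compared is the level of each isozyme between sources, and the shift between sources in the difference of 2 isozymes on the same array. In these tissues fewer cells of a type and less RNA per cell cannot be told apart.
The source with the highest mean had both arrays above all 8 others at 10 of 11 member probe sets on rhesus arrays and at 14 of 16 on human arrays. The same was true of 78.8% and 71.8% of all probe sets, so this count says nothing particular about the members. The labels of the sources were checked against marker genes. Neuron markers averaged 12.91 to 12.95 in cortex on rhesus arrays and 12.32 to 12.36 on human arrays, exocrine pancreas markers 15.36 to 15.38 and 15.03 to 15.04 in pancreas, thymocyte markers 12.25 to 12.30 and 8.26 to 8.27 in thymus, and fibroblast markers 12.64 to 12.72 and 12.22 to 12.33 in fibroblasts. Among the defining genes CD3E lay at the floor in thymus on human arrays. Testis held its Sertoli and Leydig cell markers, at 9.24 to 9.32 and 7.23 to 7.25, while 4 of 9 measured germ cell markers on rhesus arrays and 8 of 14 on human arrays lay at the floor there. Thymocyte markers also stood up in testis, at 6.28 to 6.29 against 3.22 to 3.94 in cortex, fibroblasts and pancreas on rhesus arrays (DNTT at 7.88, CD1B at 8.45, CD8A at 7.40), and on human arrays at 4.01 against 3.08 to 3.52 (RAG1 at 5.89, DNTT at 5.34). Their part in the testis levels was not tested.

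**Figure D1:**
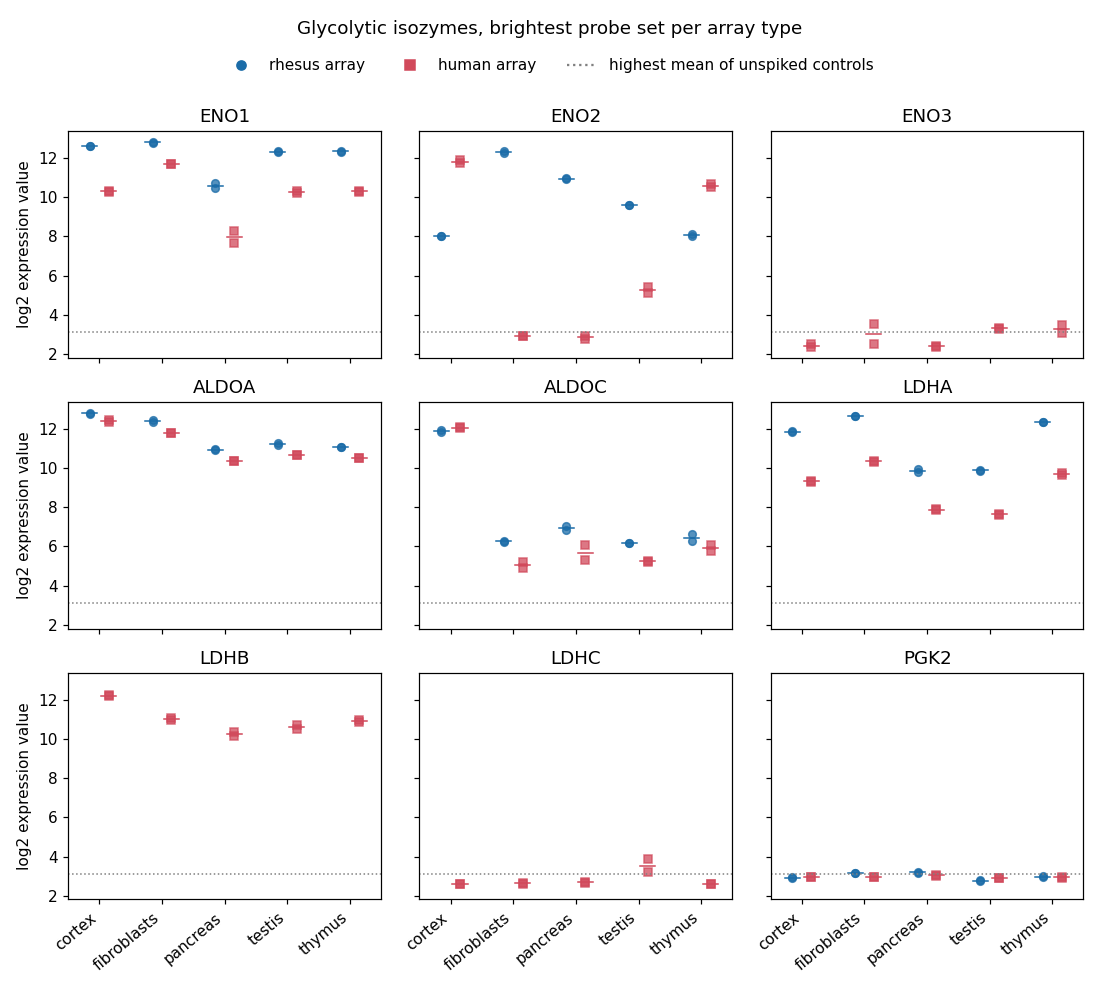
Log2 expression value (vertical axis) of the brightest probe set of each of the 9 isozyme genes in the 5 sources (horizontal axis), with 1 point per array, circles for rhesus arrays and squares for human arrays, short lines for the mean of 2 arrays and a dotted line at the floor of 3.12. ALDOC stands apart in cortex on both array types, ENO2 runs opposite ways on them, and ENO3, LDHC and PGK2 stay at or near the floor.

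ENO1, the general enolase, was highest in fibroblasts and lowest in pancreas. Its brightest rhesus probe set read 12.76 and 12.81 in fibroblasts, 12.58 and 12.62 in cortex, 12.35 and 12.31 in thymus, 12.29 and 12.33 in testis and 10.46 and 10.70 in pancreas. The brightest human probe set read 11.69 and 11.67 in fibroblasts, 10.28 and 10.31 in thymus, 10.27 and 10.32 in cortex, 10.23 and 10.32 in testis and 8.26 and 7.66 in pancreas. Thymus and testis overlapped on rhesus arrays, and thymus, cortex and testis on human arrays, so those neighbours in the order did not differ beyond the spread of their arrays. The lead of fibroblasts over the next source was 0.19 on rhesus arrays, where quantile normalization put cortex ahead by 0.07 and subtracting the spiked controls gave fibroblasts a lead of 0.64, and 1.38 on human arrays. With the average of all ENO1 probe sets, the human difference of fibroblasts from the other sources went from 1.97 to 0.91.
The other ENO1 probe sets differed in the size of this lead, and not all of them showed it. A pair of rhesus probe sets put fibroblasts 1.07 and 1.22 above cortex, and pancreas was again the lowest at both, 3.06 and 3.24 under fibroblasts. A second human probe set gave fibroblasts a lead of 0.41 with an SD of 0.43 between its fibroblast arrays. The rest read little, with 1 rhesus probe set between 1.80 and 4.62 and 2 human ones between 2.40 and 3.76 and between 2.25 and 2.34, the last of them under the floor on all arrays. That dim rhesus probe set was highest in cortex and testis, at means of 4.14 and 4.12, with fibroblasts at 2.27, under the floor. A further rhesus probe set, shared between ENO1 and a second locus by annotation and not counted among the members, also had its highest level in fibroblasts, 1.60 above cortex.

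ENO2, the neuronal enolase, was the member on which the array types parted. Its only rhesus probe set read 12.35 and 12.26 in fibroblasts, 10.98 and 10.90 in pancreas, 9.59 and 9.61 in testis, 8.13 and 8.01 in thymus and 7.99 and 8.03 in cortex. Its only human probe set read 11.87 and 11.73 in cortex, 10.65 and 10.52 in thymus, 5.40 and 5.13 in testis, 2.92 and 2.90 in fibroblasts and 2.75 and 2.94 in pancreas. Cortex was thus the lowest source on rhesus arrays, where it overlapped with thymus, and the highest on human arrays. Fibroblasts led on rhesus arrays, by 1.36 over pancreas, and lay under the floor on human arrays, where they overlapped with pancreas. The lead of fibroblasts was 0.79 with quantile normalization and 2.89 with spiked controls subtracted. Testis was in the middle of both orders.
Against the mean of the other 4 sources the cortex difference of ENO2 was -2.22 on rhesus arrays and 6.40 on human arrays. The same differences were 3.15 and -4.71 in fibroblasts, 1.45 and -4.80 in pancreas, -2.14 and 4.88 in thymus and -0.23 and -1.77 in testis. Because fibroblasts and pancreas lay under the floor on human arrays, the human differences are not exact folds. The pooled SD between arrays of a source was 0.0571 and 0.122, far under the gap between the array types. Since the gene was chosen for this disagreement, no test is given, and with 1 probe set per array type there is no further reading of ENO2 on either. The human reading in thymus, 10.65 and 10.52, stood beside neuron markers that averaged 3.47 there, with 5 of 7 (NRGN, SYT1, STMN2, GAD1 and RBFOX3) at the floor and NEFL, a neurofilament gene, at 7.67.
The genes nearest to ENO2 in pattern also differed between the array types. Nearness was the root mean square difference between the 5 source means of 2 genes, each centred on its own average, over 14131 other genes on rhesus arrays and 19774 on human arrays. The nearest on rhesus arrays were METRNL at 0.18, CD151 at 0.23 and SLC2A10 at 0.29. The nearest on human arrays were PRKCB at 0.92, ARPP21 at 1.03 and NEFL at 1.25. For ENO1, over 11955 genes read on both types, they were SQLE at 0.19, PDCD6 at 0.21 and BDH2 at 0.25. These are descriptions over 5 sources, which many genes can match.
ENO3, the muscle enolase, was read on human arrays only and stayed near the floor. Its brighter probe set ran from 2.34 to 3.52, with all 4 neighbouring pairs of sources overlapping, and the dimmer one from 2.63 to 2.75. Skeletal muscle markers averaged 2.62 to 2.99 over the 5 sources on these arrays, with CKM, MYH2 and MYL1 at the floor in each. TNNC2 read 4.58 in testis and 3.21 in cortex, ACTA1 read 3.41 in cortex, and TNNT3 read 3.12 to 3.17 over the sources. On rhesus arrays, by contrast, CKM read 11.88 in cortex and 8.23 in thymus. The other 4 markers measured there (MYH2, TNNT3, MYL1 and TNNC2) lay at the floor in cortex and in thymus. The part of skeletal muscle in the ENO3 level was not tested.

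ALDOA and ALDOC both had their highest level in cortex, by very different margins. ALDOC, the brain aldolase, read 11.93 and 11.85 in cortex by the brighter rhesus probe set, and 6.85 and 7.03 in pancreas, 6.62 and 6.26 in thymus, 6.24 and 6.28 in fibroblasts and 6.20 and 6.20 in testis. By its human probe set it read 12.04 and 12.08 in cortex, 5.75 and 6.09 in thymus, 5.30 and 6.08 in pancreas, 5.22 and 5.27 in testis and 5.19 and 4.91 in fibroblasts. Cortex lay 4.95 above the next source on rhesus arrays and 6.14 above it on human arrays, and the other 4 sources lay close together. Thymus overlapped with fibroblasts on rhesus arrays and with pancreas on human arrays. The second rhesus probe set of ALDOC gave cortex a lead of 5.70. The lead of cortex was kept under each scaling of the arrays that was tried, between 4.31 and 6.18.
Some markers of astrocytes moved with ALDOC. The average of the list was 10.38 to 10.45 in cortex and 4.50 to 6.81 in the other sources on rhesus arrays (4 of 6 genes measured), and at most 10.07 and 4.15 to 5.68 on human arrays (6 of 6). None of them lay at the floor in cortex, and in fibroblasts, testis and thymus SLC1A2 did on both array types. GFAP, SLC1A2 and SLC1A3 were highest in cortex on both types, but ALDH1L1 was higher in pancreas and thymus (8.19 and 7.63 on rhesus arrays, 8.63 and 8.36 on human arrays) than in cortex (6.85 and 6.97), and GJA1 on human arrays was higher in fibroblasts, at 12.95 against 11.70. Neuron markers moved in the same direction, and the part of either in the ALDOC level was not tested. The genes nearest to ALDOC over both array types were CALY at 0.27, KCNIP4 at 0.31 and LRRC7 at 0.31.
ALDOA, the general aldolase, had a much narrower range. The brighter rhesus probe set read 12.73 and 12.83 in cortex, 12.37 and 12.45 in fibroblasts, 11.19 and 11.25 in testis, 11.06 and 11.09 in thymus and 10.91 and 10.97 in pancreas. The brightest human probe set gave 12.46 and 12.37 in cortex, 11.77 and 11.81 in fibroblasts, 10.66 and 10.67 in testis, 10.53 and 10.53 in thymus and 10.34 and 10.38 in pancreas. By these probe sets the order of the 5 sources was the same on both array types, and no neighbours in it overlapped. Cortex led fibroblasts by 0.37 on rhesus and 0.62 on human arrays, and with the level of the spiked controls (bacterial transcripts added before hybridization) subtracted, fibroblasts led by 0.08 on rhesus arrays.
The remaining ALDOA probe sets, 1 rhesus and 2 human, also placed cortex first and fibroblasts next, with leads of 0.80, 0.55 and 0.25. So did the rhesus probe set that the annotation shares between ALDOA and a second locus, by 0.61. Below these sources the order varied. Thymus and pancreas overlapped at the remaining rhesus member probe set, and the dimmest human one put pancreas, at 7.19, above thymus and testis, at 7.07 each. The genes nearest to ALDOA were CNDP2 at 0.13, SPRY2 at 0.17 and SNX3 at 0.19.

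LDHA was highest in fibroblasts, and LDHB in cortex. LDHA, the subunit prominent in glycolytic tissue, read 12.64 and 12.64 in fibroblasts, 12.35 and 12.34 in thymus, 11.83 and 11.89 in cortex, 9.86 and 9.92 in testis and 9.97 and 9.78 in pancreas on rhesus arrays. Its human probe set read 10.37 and 10.30 in fibroblasts, 9.77 and 9.65 in thymus, 9.31 and 9.33 in cortex, 7.84 and 7.93 in pancreas and 7.62 and 7.63 in testis. Fibroblasts, thymus and cortex kept this order on both array types without overlap, and fibroblasts led thymus by 0.29 and 0.62. The lead of 0.29 on rhesus arrays was 0.10 with quantile normalization and 0.68 with spiked controls subtracted, and that of 0.62 on human arrays was 1.05 with the latter. Testis and pancreas lay below all the other sources on both array types, and they overlapped with each other on rhesus arrays. The genes nearest to LDHA were UHMK1 and ETS2, at 0.36 each, and GPX4 at 0.42.
LDHB was read by a pair of human probe sets. Both are among the 6 of 16 human member probe sets with names ending in x_at, as are all human ALDOA probe sets. Binding of such probes to other transcripts was not tested. The brighter LDHB probe set read 12.17 and 12.23 in cortex, 10.98 and 11.06 in fibroblasts, 10.87 and 10.96 in thymus, 10.53 and 10.70 in testis and 10.33 and 10.15 in pancreas. By the dimmer the cortex arrays read 12.07 and 12.18, and the lead of cortex over fibroblasts was 1.12, against 1.18 by the first. The 8 arrays of the other sources read 10.15 to 11.06 by the brighter, and the order of testis and pancreas turned between the probe sets.
LDHC, the germ cell subunit, was at the floor outside testis. Its human probe set gave 3.21 and 3.88 in testis and 2.58 to 2.69 on the 8 other arrays. Testis was above all of them, by 0.86 over pancreas, with an SD of 0.48 between its own arrays. The lower testis array lay within the single values of bacterial controls that were not added, which reached 3.29 on human arrays. The lead was 0.30 with spiked controls subtracted, and the difference of testis from the other 4 sources, 0.91, ranged from 0.57 to 1.25 with 1 array left out. PGK2, the phosphoglycerate kinase of spermatogenic cells, showed no such rise. Its rhesus probe set ran from 2.76 to 3.23 and its human probe set from 2.89 to 3.06, with testis the lowest source on both. PGK2 was highest in pancreas, by 0.04 and 0.07, a lead that each scaling tried took away, and these levels lie around the floor.
Germ cell markers in the same testis RNA were split. On human arrays DDX4 read 7.05, ZPBP 7.89, SYCP3 6.02 and SYCP1 4.92 in testis, whereas DAZL, ACR, ACRV1, SPACA1, ODF1, TNP2, PRM1 and PRM2 were at the floor. DAZL, an early germ cell gene, read 6.91 in testis on rhesus arrays against 3.16 to 4.03 elsewhere. The protamine gene PRM1, which packs sperm DNA, read 2.43 in testis on human arrays. On rhesus arrays PRM1 read 3.21 in testis and 3.34 to 3.58 in the other sources. The list averaged 3.73 to 3.79 in testis and 2.64 to 2.93 in the other sources on human arrays, and 4.22 to 4.34 and 2.88 to 3.45 on rhesus arrays. GAPDHS, the glyceraldehyde phosphate dehydrogenase of sperm, read 2.42 in testis on human arrays, and PDHA2, a testis subunit of pyruvate dehydrogenase, 2.42 and 2.60. The part of germ cell content in the low levels of LDHC and PGK2 was not tested.
PGK1, the general phosphoglycerate kinase, is no member but completes the pair. Its brightest human probe set read 12.15 and 11.91 in cortex, 11.80 and 11.89 in thymus, 11.77 and 11.83 in fibroblasts, 10.38 and 10.26 in testis and 9.24 and 9.07 in pancreas. Cortex also led by a second human probe set, at 10.85 against 10.60 in fibroblasts, but thymus led by another, at 10.14 against 9.86 in cortex, and by the rhesus probe set shared with other loci, at 11.27 against 11.11 in fibroblasts. Its log2 difference from the mean of the other 4 sources was 1.25 in cortex (adjusted p = 5.24e-05 from limma), 1.02 in thymus (adjusted p = 0.000152), 0.96 in fibroblasts (adjusted p = 0.000211, under the minimum difference of 1), -0.89 in testis (adjusted p = 0.000392, likewise) and -2.35 in pancreas (adjusted p = 4.53e-06).

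An offset added to all log2 values of an array cancels in the difference of 2 isozymes on that array. Scaling that varies with the level, and levels near the floor, can still change the difference. The ALDOA minus ALDOC difference was 0.80 and 0.98 in cortex on rhesus arrays, against 6.13 and 6.17 in fibroblasts, 4.99 and 5.05 in testis, 4.44 and 4.84 in thymus and 4.05 and 3.94 in pancreas. On human arrays it was 0.42 and 0.29 in cortex and 4.30 to 6.90 in the others. Cortex was thus the source most shifted to ALDOC, by 5.26 and 6.39 from fibroblasts, a change in the ratio of 38.3-fold and 83.7-fold. The rhesus shift of 5.26 was 4.86 with quantile normalization and 5.95 with the average of all probe sets of each gene, so the folds are not exact.
The balance of lactate dehydrogenase subunits lay furthest toward LDHB in cortex and testis. LDHA minus LDHB was -0.62 and -0.75 in fibroblasts, -1.10 and -1.31 in thymus, -2.49 and -2.22 in pancreas, -2.86 and -2.90 in cortex and -2.91 and -3.06 in testis on human arrays. No neighbours overlapped, although cortex and testis were only 0.01 apart at their nearest arrays. The balance was taken from the brighter LDHB probe set. By the dimmer, LDHB read 10.42 against 10.61 in testis and 12.13 against 12.20 in cortex, so the order of cortex and testis rests on the probe set. From testis to fibroblasts the ratio shifted toward LDHA by 2.30, or 4.93-fold.
LDHA minus LDHC was lowest in testis, at 4.41 and 3.75, and highest in fibroblasts, at 7.75 and 7.63, and since LDHC lay at the floor outside testis most of this range follows LDHA. Likewise ENO1 minus ENO3 ran from 5.57 in pancreas to 8.67 in fibroblasts and PGK1 minus PGK2 from 6.11 in pancreas to 9.08 in cortex, with ENO3 and PGK2 near the floor. The ENO1 minus ENO3 range of 3.10 was 2.02 with quantile normalization and 1.30 with the average of all probe sets, which took that of PGK1 minus PGK2 from 2.97 to 1.55.
The enolase balance went opposite ways on the array types. ENO1 minus ENO2 was highest in cortex on rhesus arrays, at 4.58 and 4.59, and lowest in pancreas, at -0.52 and -0.20. On human arrays it was lowest in cortex, at -1.60 and -1.41, next in thymus, at -0.37 and -0.20, and highest in fibroblasts, at 8.77 on both arrays. The order of cortex and thymus relative to fibroblasts and pancreas was turned over as a whole.

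**Figure D2:**
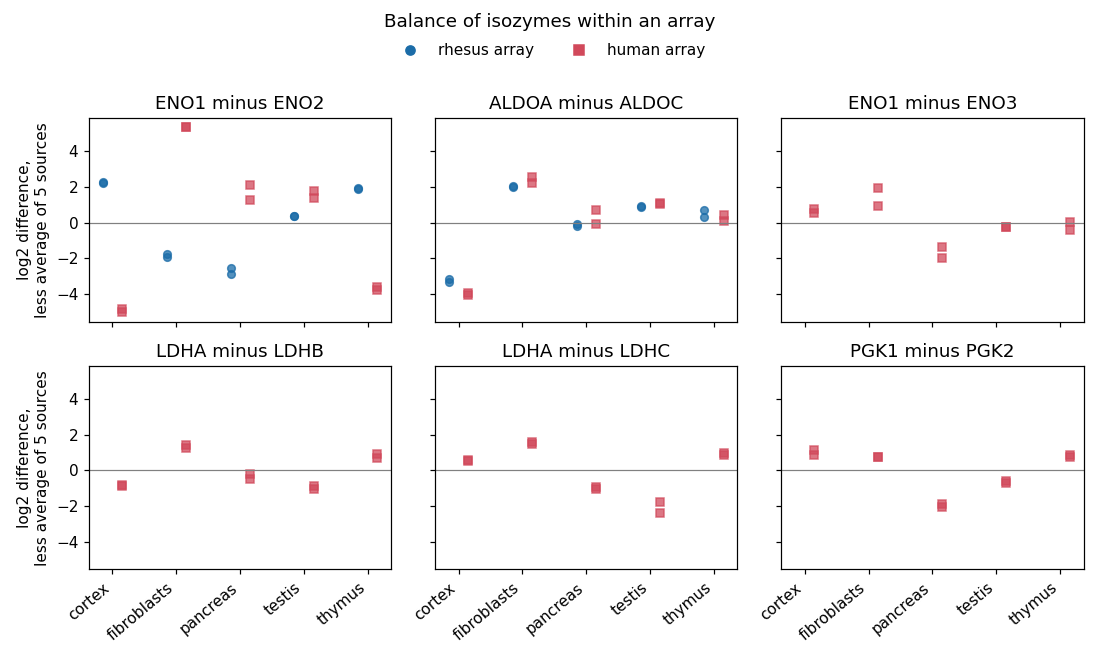
Difference of 2 isozymes on the same array, less its average over the 5 sources (vertical axis, log2 units), by source (horizontal axis), with 1 point per array, circles for rhesus and squares for human arrays. ALDOA minus ALDOC is lowest in cortex on both array types, LDHA minus LDHB is highest in fibroblasts, and ENO1 minus ENO2 has opposite signs on the array types in cortex, fibroblasts, pancreas and thymus.

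Each gene was taken here by its brightest probe set. Read for each source, the member furthest above its own average over the sources was ALDOC in cortex, by 4.34 on rhesus and 5.27 on human arrays. In fibroblasts it was ENO2 by 2.52 on rhesus arrays and ENO1 by 1.58 on human arrays. Thymus had LDHA by 1.02 on rhesus arrays and ENO2 by 3.90 on human arrays. In testis the largest rise was ENO1 at 0.19 on rhesus arrays and LDHC at 0.73 on human arrays, so no member stood far above its average there by its brightest probe set. The dim rhesus ENO1 probe set was 0.96 above its own average in testis. Pancreas had ENO2 at 1.16 on rhesus arrays and PGK2, at the floor, at 0.08 on human arrays.
By the brightest probe sets as deposited, pancreas was the lowest or next to lowest source for ENO1, ALDOA, LDHA and LDHB. It was in the middle of the 5 sources by the dimmest human ALDOA probe set (7.19, above 7.07 in thymus and in testis) and, with quantile normalization, for ALDOA on both array types and for LDHB. Beside this, RNA quality was read from actin control probe sets near each end of the transcript: the excess of the 3' over the 5' end was 4.26 to 4.89 in pancreas and 2.03 to 2.79 in the other sources on rhesus arrays, and 2.10 to 2.71 and 1.96 to 2.51 on human arrays. The same quantity for GAPDH was 2.46 to 3.08 and 1.22 to 1.97, and 1.30 to 1.32 and 0.07 to 0.52. The 9 spiked control probe sets averaged 11.59 in pancreas and 10.06 to 10.67 elsewhere on rhesus arrays, and 11.78 and 10.30 to 10.90 on human arrays. The part of RNA quality in the pancreas levels was not tested.

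The other genes of the pathway, which were not members, were tested. They were 44 genes in 3 lists: 23 glycolytic enzymes, 12 regulators of glycolysis and of pyruvate oxidation, and 9 carriers of glucose and lactate. Of these 33 were measured on rhesus and 39 on human arrays, each read from its brightest probe set. For each source limma gave the difference from the average of the remaining 4 across all probe sets, and calls needed both an adjusted p (Benjamini-Hochberg) under 0.05 and a log2 difference of 1 or more in size. The 5 comparisons of an array type share their arrays, so a gene high in 1 source is lowered in the others. The lists were chosen with earlier results of these data known, and the p-values take no account of that choice.
In cortex 5 of the 16 enzymes measured on rhesus arrays were higher and 2 lower, and 6 of 20 were higher and 0 lower on human arrays. Phosphofructokinase PFKP rose by 2.77 and 1.77, triosephosphate isomerase TPI1 by 1.88 and 1.07 and GAPDH by 1.79 and 1.58, called on both array types. GAPDH read 12.17 and 13.25 in cortex, under fibroblasts (12.27 and 13.48) and far above pancreas (7.93 and 9.28). The glucose transporter SLC2A1 (GLUT1), the form of the blood-brain barrier, was higher by 2.32 (adjusted p = 1.47e-06 from limma) and 2.16 (adjusted p = 0.000813). Regulators called on both types were PFKFB3, which makes an activator of phosphofructokinase, at 2.23 and 1.41, and the pyruvate dehydrogenase kinases PDK2 at 2.18 and 1.53 and PDK4 at -1.14 and -1.02. The lower call of PDK4 rests on its high level in pancreas, 9.3 and 8.35. In cortex PDK4 read 4.46 and 3.65, under testis (5.44 and 4.07) but above thymus (4.17 and 3.24) and fibroblasts (3.48 and 3.02). Over the 3 lists 9 genes were higher and 4 lower on rhesus arrays, where 16.6% and 21.1% of all genes were called, and 10 and 2 on human arrays, where 11.0% and 9.99% were. The list median was -0.04 and 0.03, against -0.12 and -0.04 over all genes. Without the pancreas arrays the lists held 5 calls in cortex on human arrays.
In fibroblasts more of the called enzymes and carriers were higher than lower. Of 16 enzymes measured on rhesus arrays 6 were higher and 1 lower, and of 20 on human arrays 6 were higher and 0 lower, of which 3 were called on both types: PFKP at 4.25 and 3.98, the pyruvate kinase gene PKM at 3.29 and 2.32 and GAPDH at 1.92 and 1.86. Among the carriers 4 of 9 were higher and 1 lower on rhesus arrays, and 2 of 7 higher and 0 lower on human arrays. Those higher included SLC2A3 (GLUT3) by 4.10 and 2.39 and SLC2A1 by 2.55 and 1.83, and the lactate exporter SLC16A3 (MCT4) by 5.45 on rhesus arrays, where it read 9.15 in fibroblasts and 6.84 in thymus and lay at the floor in the other 3. The carrier that was lower on rhesus arrays was SLC16A7 (MCT2), at -1.04. PDK3 fell by 2.07 and fell by 3.31, and PDK4 fell by 2.36 and fell by 1.81. In all, 11 listed genes were higher and 4 lower on rhesus arrays (18.0% and 14.9% of all genes), and 9 and 2 on human arrays (11.3% and 8.10%). The list medians were 0.07 and 0.02, and those of all genes 0.03 and 0. With the spiked controls subtracted 16 were higher and 2 lower on both types.
Pancreas went the other way for most enzymes called. Of the enzymes 6 of 16 were lower and 1 higher on rhesus arrays, and 7 of 20 lower and 1 higher on human arrays. PFKP fell by 5.18 and fell by 4.30, GAPDH fell by 3.51 and fell by 3.39 and PKM fell by 3.16 and fell by 1.25. SLC2A1 fell by 2.10 and fell by 1.74, to 2.70 and 2.90, under the floor on both array types. PFKP read 2.94 in pancreas on rhesus arrays, at the floor, so its difference is not an exact fold. PDK4, which limits the entry of pyruvate into oxidation, was higher by 4.91 (adjusted p = 1.67e-06 from limma) and 4.85 (adjusted p = 2.3e-05), and the monocarboxylate carrier SLC16A7 by 1.69 and 1.11. Over the lists 5 were higher and 11 lower on rhesus arrays (9.81% and 23.8% of all genes), and 4 and 9 on human arrays (5.01% and 15.7%), with medians of -0.50 and -0.13 against -0.10 and 0.03. With the spiked controls subtracted, which lowers all pancreas values relative to the other sources, 24 of 25 calls on rhesus and 31 of 33 on human arrays were lower, and with array medians subtracted 2 were higher and 12 lower on rhesus arrays and 3 and 12 on human arrays.
In testis PFKP fell by 2.58 and fell by 2.09, PKM fell by 1.66 and fell by 1.37 and SLC2A1 fell by 1.62 and fell by 1.45. PDK3 was higher by 3.21 (adjusted p = 4.57e-05 from limma) and 2.66 (adjusted p = 0.00312). Hexokinase HK2 rose by 4.05 on rhesus arrays, while the human arrays gave 0.76 (adjusted p = 0.145 from limma). Its human probe set read 3.72 in testis and 2.87 to 3.10 in the other sources, under the floor, so 0.76 is not an exact fold. The lists held 4 higher and 8 lower genes on rhesus arrays (16.1% and 11.2% of all), and 2 and 5 on human arrays (8.67% and 5.63%), and their medians were -0.37 and -0.13 against -0.08 and -0.06 over all genes. With array medians subtracted the human split was 2 and 3, and without the pancreas arrays 1 and 10.
Thymus had few calls among the enzymes, 1 higher and 1 lower on each array type. PDK1 was higher by 1.19 and 1.58, and PDK4 fell by 1.5 and fell by 1.53. The level of PDK4 in thymus, 4.17 and 3.24, was above that in fibroblasts (3.48 and 3.02), while pancreas read 9.3 and 8.35. Over the lists 5 were higher and 6 lower on rhesus arrays (16.7% and 18.1% of all), and 2 and 3 on human arrays (9.65% and 10.1%). The medians were -0.07 and -0.05 against -0.06 and -0.04. Quantile normalization gave 1 higher and 3 lower on human arrays.
The source differences of 30 listed genes could be set against each other on the array types. Calls in the same direction on both numbered 7 in cortex and 7 in fibroblasts, against 6 in pancreas, 4 in testis and 2 in thymus. The matching share of all genes read on both types is not given here. These counts therefore cannot say whether the listed genes differed from the rest in any source. Tested in limma, the gap between the types passed for 6 genes in cortex, where 20.3% of all genes did, for 8 in fibroblasts (16.8%), for 10 in pancreas (21.8%), for 4 in testis (13.7%) and for 5 in thymus (17.5%). On the array types a gene is read by different probes, whose part in any gap was not tested.

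**Figure D3:**
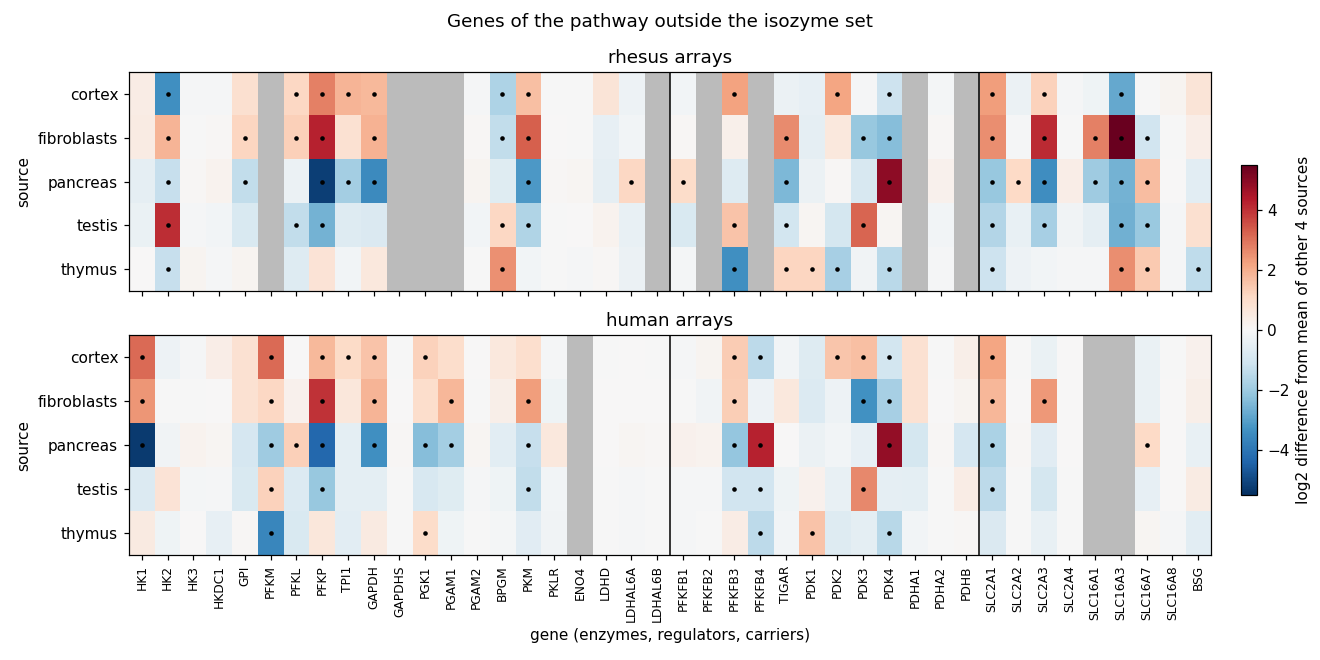
Log2 difference of each source (vertical axis) from the mean of the other 4 for the listed genes that are not members (horizontal axis), on rhesus arrays (top) and human arrays (bottom), in colour. Dots mark calls by limma, vertical lines part enzymes, regulators and carriers, and grey fields are genes without a probe set of their own. PFKP and GAPDH are higher in cortex and fibroblasts and lower in pancreas on both array types, and PDK4 is higher in pancreas.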

How the data were processed

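For each array type the authors deposited a table of log2 values, with a row for every probe set and a column for every array, and the notes of the submitters on processing list RMA. The version of RMA, and which arrays entered it jointly, were not given in the sources used here. For probe intensities the study's methods describe quantile normalization within the 2 arrays of a pair, and whether this holds for the deposited values is not stated. The sorted values of 2 arrays differed on average by 0.0109 to 0.0317 within a source and 0.0433 to 0.397 between sources (rhesus), and by 0.00463 to 0.0379 and 0.0239 to 0.245 (human). Normalization within pairs would shrink the SDs and p-values given here and leave the sources on separate scales. Medians of arrays lay between 3.24 and 3.53 (rhesus) and between 2.90 and 3.05 (human), and no further normalization was applied. RNA was labelled from 5 ug of total RNA. Sources came from the sample labels and gene names from the annotation of the array designs, whose 11 rhesus member probe sets all matched a RefSeq gene number with 0 changed symbols. The members and gene lists were chosen with earlier results of these data known. Tests used R 4.3.3 and limma 3.58.1 (lmFit, eBayes) per array type over all probe sets except controls, with Benjamini-Hochberg adjustment, and over 20 arrays at the gene level for the contrast of array types. Of the listed genes, values are given for those called on both array types in a source, and others were picked after their values were seen. In simulated data for testis, 82 of 100 probe sets changed by 1.5 and 98 of 100 changed by 3 were recovered on the rhesus arrays (52766 tested), and 90 and 98 on the human arrays (54613 tested). Alternatives were other scalings, other readings of a gene, a filter on dim probe sets, other thresholds and tests, the replicate number as a block, and each array left out. The number of arrays limits the precision. Probe and protein sequences were not used here.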

Additional observations from a re-analysis of the deposited data

Results flagged for a closer look

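The phosphofructokinase regulator PFKFB3 had opposite calls in testis on the array types, at 1.58 on the rhesus arrays (higher than the mean of the other sources) and -1.04 on the human arrays. The difference between them was 2.62 (adjusted p = 3.3e-06 from limma over genes read on both), with the testis level at 7.48 and 5.80.
ENO2 had opposite differences on the array types in 4 of 5 sources, with both arrays of a type behaving alike in each. Rhesus less human, the gap was -8.62 in cortex, 7.86 in fibroblasts, 6.25 in pancreas and -7.02 in thymus. Human ENO2 lay under the floor in fibroblasts and pancreas, so these gaps are not exact folds. This difference was not tested, since the gene was chosen for it.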

How the results depend on the processing

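Only 2 arrays per source and type, of 1 RNA, limit every comparison, and levels near 3.12 have no order. With each array left out in turn, the listed genes called ranged from 11 to 13 in cortex, 14 to 15 in fibroblasts, 15 to 17 in pancreas, 11 to 13 in testis and 11 to 11 in thymus on rhesus arrays, and from 8 to 12, 11 to 13, 12 to 14, 5 to 8 and 3 to 5 on human arrays, the 3 in thymus being without thymus replicate 4. The ENO2 difference of cortex ranged from -2.24 to -2.20 and from 6.33 to 6.47.
Subtracting the spiked controls moved the median of all probe sets in pancreas from 0.07 to -1.10 (rhesus) and from 0.05 to -1.08 (human), and in fibroblasts from 0.02 to 0.76 and from 0.00 to 0.73. It gave 25 calls in pancreas on rhesus arrays and 33 on human arrays, 18 in fibroblasts on human arrays, and an ENO2 difference of -2.04 and 6.64 in cortex. PGK2 in pancreas, 0.24 and 0.10 as deposited, turned to -0.92 and -1.03 with spiked controls, -0.01 and -0.02 with quantile normalization and, on human arrays, -0.02 with array medians subtracted. With no minimum difference the calls were 22, 23, 27, 25 and 17 on rhesus arrays in the order above, and 29 in pancreas, 17 in testis and 12 in thymus on human arrays. Averaging every probe set of a gene gave 4 calls in testis and 1 in thymus on human arrays. Leaving the pancreas arrays out, an alternative chosen after seeing the data, gave 5 calls in cortex and 11 in testis on human arrays, and an ENO2 difference of -1.98 and 5.55. The cause of these changes was not tested.
The replicate numbers did not pair the samples, since deviations of arrays with the same number correlated between -0.0252 and 0.0101 on rhesus arrays and between -0.0341 and 0.0177 on human arrays. With the replicate number as a block the calls were 13, 15, 16, 12 and 11 on rhesus arrays and 12, 11, 13, 6 and 5 on human arrays, and the ENO2 difference stayed at -2.22 and 6.40.
Of 188 recomputed counts of listed genes 172 were within 1.5 times the count reported, and of 210 member levels 5 changed sign, all of PGK2.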
